A study of Mus musculus with 6 samples.

Results

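The 10 transcription factors described here act in endothelium and were examined in RNA-seq libraries of mouse retinal endothelial cell preparations: the SOXF factors Sox7, Sox17 and Sox18, the ETS factors Erg, Fli1, Ets1 and Elk3, the bHLH factor Tal1, and the fork head factors Foxf2 and Foxq1. They were taken by gene symbol, and all 10 symbols were found among the 24421 symbols of the expression table. The mutant pups were Anxa3 fl/fl;Tie2-Cre and the control pups Anxa3 fl/fl, both on the C57BL/6 background and at postnatal day 7, so both genotypes carried the floxed Anxa3 alleles and only the mutants carried the recombinase. There were 3 mutant and 3 control libraries, and the study asked which genes respond when annexin A3, which binds membrane phospholipids in the presence of calcium, is lost. The Tie2 promoter drives Cre in endothelial and in blood-lineage cells. Since no control carried Cre, the recombinase and the deletion cannot be told apart. The labels do not say whether a library came from a single pup or from several, so the p-values measure the spread between libraries, which may be technical.

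SOXF proteins bind DNA through an HMG box, ETS proteins through a winged ETS domain that recognises a GGAA core, and fork head proteins through a winged helix. Members of these families switch on and hold the genes that define endothelial cells, and Sox17 is also a marker of arterial endothelium. Sox17, Foxf2 and Foxq1 are further known from blood vessels of the central nervous system, where Wnt signalling and barrier formation go together.

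The libraries differed in ways that touch every value given here. Levels are given as FPKM, fragments scaled to gene length and library depth. Each library held 21377019 to 30885745 recovered reads and had 13332 to 13695 genes at 1 FPKM or more. Anxa3 measured 9.78, 12.5 and 15.1 FPKM in mutant libraries 1, 2 and 3, against 18.7, 17.7 and 43.4 FPKM in control libraries 1, 2 and 3, with no overlap and a log2 difference of -0.93 (limma, adjusted p = 1, unadjusted p = 0.0204), or -0.53 without control 3. All 18 endothelial marker genes were detected, but photoreceptor genes were abundant too: Sag, the rod arrestin gene, measured 1270, 979 and 951 FPKM in mutants, against 1170, 1090 and 772 FPKM in controls, while the endothelial cadherin Cdh5 measured 58.6, 57.9 and 66.4 FPKM in mutants and 59.2, 51.2 and 113 FPKM in controls. Control 3 stood apart, with the highest endothelial and the lowest photoreceptor level of the 6 libraries. In the labels the libraries carry the letters A to C (mutant 1 and controls 1 and 2) and D to F (mutants 2 and 3 and control 3), whose meaning is not given. In bulk samples such as these, fewer cells of a type and less RNA per cell cannot be told apart.

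None of the 10 factors differed between mutant and control libraries beyond the spread between libraries. All 10 passed the filter of at least 1 FPKM in at least 3 libraries, and 0 of 10 had an adjusted p under 0.05 (limma on log2(FPKM + 1), two-sided, Benjamini-Hochberg over all genes), where 0 of 13622 genes tested, 0.0%, did. At an unadjusted p under 0.05 the count was 0 of 10 factors, beside 165 genes or 1.21% in all, and limma voom on recovered reads gave 0 calls, with 97 genes below that unadjusted p. In 0 of 10 factors did the groups part without overlap, beside 593 genes or 4.35% in all. The log2 difference, mutant minus control, was below 0 for 10 of 10 factors, between -0.31 for Sox7 and -0.05 for Sox17 with a median of -0.18, while 52.5% of all genes tested had a difference below 0 and their median was -0.01. The 18 endothelial markers, none of which is among the factors, had a median of -0.16 and a range of -0.32 to -0.03, and without control 3 a median of 0.15.

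**Figure D1:**
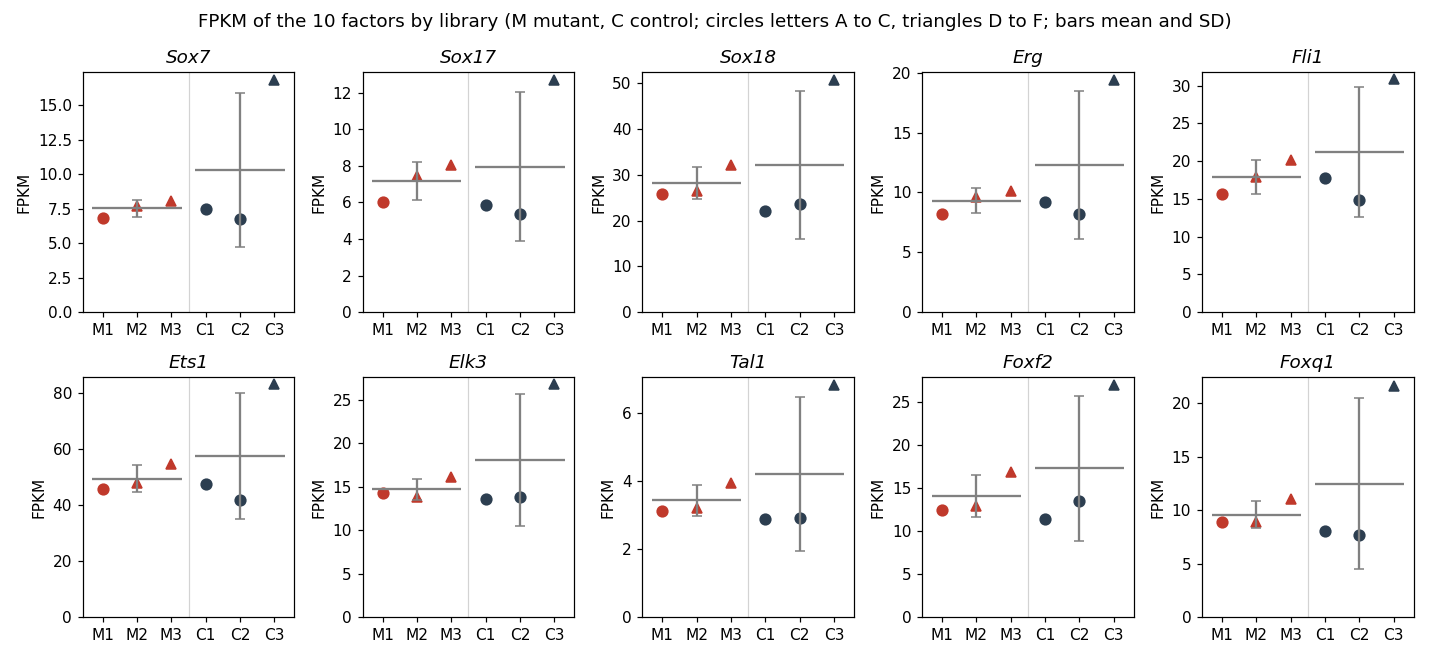
FPKM of each of the 10 factors (vertical axes, from 0) in mutant libraries M1 to M3 and control libraries C1 to C3; points are libraries, circles those lettered A to C and triangles those lettered D to F, and bars give the mean and SD of each genotype. In every panel control 3 is the highest point, and the mean of mutants 2 and 3 is 1.09 to 1.38 times that of controls 1 and 2.

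Among the SOXF factors, which act in part redundantly in vascular development, Sox18 had the highest level. Sox18, mutated in the ragged mouse strains with vessel and hair defects, measured 25.8, 26.5 and 32.2 FPKM in mutants 1, 2 and 3, against 22.1, 23.7 and 50.8 FPKM in controls 1, 2 and 3. All 3 mutants lay above controls 1 and 2 and below control 3, so the groups overlapped. Means were 28.2 ± 3.5 FPKM in mutants and 32.2 ± 16.1 FPKM in controls (SD, n = 3 each), a log2 difference of -0.09 (limma, standard error 0.286, 95% interval -0.75 to 0.57, adjusted p = 1).

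Sox7 measured 6.85, 7.71 and 8.04 FPKM in mutants, against 7.48, 6.73 and 16.8 FPKM in controls. The mutants sat among controls 1 and 2 or just above them, and control 3 was above every other library. Its log2 difference was -0.31, the largest in size of the 10 (limma, standard error 0.29, 95% interval -0.98 to 0.37, adjusted p = 1). Sox17, the arterial member of the subfamily, measured 6.05, 7.45 and 8.03 FPKM in mutants, against 5.85, 5.37 and 12.7 FPKM in controls. Here every mutant was above controls 1 and 2 and below control 3, and the log2 difference of -0.05 was the smallest in size of the 10 (limma, standard error 0.279, 95% interval -0.70 to 0.60, adjusted p = 1).

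Sox18 made up 62.3% to 66.7% of the summed SOXF FPKM over the 6 libraries and Sox17 15% to 17.9%, with overlap between the groups. The share of Sox7 was 17.7%, 18.5% and 16.6% in mutants 1, 2 and 3, against 21.1%, 18.8% and 20.9% in controls 1, 2 and 3. It was below every control in every mutant, with means of 17.6% ± 0.93 in mutants and 20.3% ± 1.3 in controls (SD, n = 3 each), and is described with no test. No other share in the SOXF, ETS and FOX families parted, and no such share was computed over all genes. The gap was narrow, with mutant 2 at 18.5% and control 2 at 18.8%, where Sox7 rested on 784 and 532 reads. The counting error of Sox7 was largest in mutant 1, with 471 reads, at 4.61% of its value. The coding sequence of the HMG box is alike in the SOXF genes. The longest exact runs shared in the coding sequence were 22 bases for Sox7 and Sox17, 20 for Sox7 and Sox18 and 29 for Sox17 and Sox18. They were no longer over the whole transcripts compared. Only reads no longer than such a run could match another member equally well. The read length is not given in the sources used here, and how many reads this touches was not tested.

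Of the ETS factors, Ets1 had the highest level of all 10 genes. Ets1, which is active in sprouting vessels and also in lymphocytes, measured 46.0, 47.9 and 54.9 FPKM in mutants, against 47.5, 42 and 83.4 FPKM in controls. Mutant 1 lay between controls 1 and 2, and mutants 2 and 3 lay between those and control 3. Means were 49.6 ± 4.66 FPKM in mutants and 57.7 ± 22.5 FPKM in controls (SD, n = 3 each), with a log2 difference of -0.15 (limma, standard error 0.234, 95% interval -0.69 to 0.39, adjusted p = 1).

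Erg, which is required to keep endothelial genes on and junctions closed, measured 8.19, 9.63 and 10.1 FPKM in mutants, against 9.19, 8.2 and 19.4 FPKM in controls. Mutant 1 was the lowest library, level with control 2, and control 3 was the highest. The log2 difference was -0.27 (limma, standard error 0.279, 95% interval -0.92 to 0.38, adjusted p = 1). Fli1, the closest relative of Erg, measured 15.7, 17.9 and 20.1 FPKM in mutants, against 17.8, 14.8 and 30.9 FPKM in controls, with a log2 difference of -0.17 (limma, standard error 0.242, adjusted p = 1). The Fli1 groups overlapped too, with mutant 1 between controls 1 and 2.

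Elk3, a ternary complex factor that works with serum response factor and can repress its targets, measured 14.3, 13.8 and 16.1 FPKM in mutants, against 13.6, 13.8 and 26.8 FPKM in controls. All libraries but mutant 3 and control 3 were near the same level, and the log2 difference was -0.21 (limma, standard error 0.237, adjusted p = 1). The Elk3 gene overlaps Cdk17, which lies on the opposite strand, over 19658 bases, and the library kit named in the labels does not mark strand. Reads from the overlap cannot be told apart. Cdk17, a cyclin-dependent kinase gene, measured 19.5, 20.5 and 20.6 FPKM in mutants, against 20.1, 19.7 and 29.0 FPKM in controls. Sox17, Fli1, Ets1, Foxf2 and Foxq1 also overlap annotated genes on the opposite strand, for which the same holds.

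The 90-base windows of the ETS domain coding sequence that follow (GENCODE M21, GRCm38, also called mm10), in which capitals mark the 38 of 90 bases that are the same in all 4 genes, are shown because Erg and Fli1 are near copies there.
Erg (chr16:95361229-95361318, minus strand): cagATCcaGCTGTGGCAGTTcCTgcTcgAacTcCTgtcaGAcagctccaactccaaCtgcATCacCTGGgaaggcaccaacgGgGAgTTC
Fli1 (chr9:32424208-32424297, minus strand): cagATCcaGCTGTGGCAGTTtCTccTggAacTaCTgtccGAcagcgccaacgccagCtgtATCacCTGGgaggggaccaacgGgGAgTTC
Ets1 (chr9:32752807-32752896, plus strand): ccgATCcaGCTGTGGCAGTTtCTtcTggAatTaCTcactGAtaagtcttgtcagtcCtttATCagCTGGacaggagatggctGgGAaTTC
Elk3 (chr10:93284877-93284966, minus strand): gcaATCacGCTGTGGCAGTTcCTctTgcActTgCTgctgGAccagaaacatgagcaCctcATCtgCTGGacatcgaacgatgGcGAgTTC
Erg and Fli1 were 87.8% identical over the window, while Erg and Ets1 were 62.2% and Erg and Elk3 55.6% identical. Exact runs shared in the coding sequence reached 22 bases for Erg and Fli1 and 21 bases for Fli1 and Ets1. Ets1 made up 52.0% to 54.7% of the summed ETS FPKM in each library, Fli1 18.6% to 20.2%, Elk3 15.4% to 17.5% and Erg 9.73% to 12.1%. Fli1 and Ets1 are neighbours on chromosome 9 (Fli1 chr9:32422204-32542861, minus strand; Ets1 chr9:32636221-32757820, plus strand), 93359 bases apart with 2 noncoding genes and 0 coding genes between them.

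Tal1, a bHLH factor of blood and endothelial development that binds DNA with E proteins and LMO2, had the lowest level. It measured 3.11, 3.22 and 3.95 FPKM in mutants, against 2.89, 2.91 and 6.8 FPKM in controls. Every mutant lay above controls 1 and 2 and below control 3. The log2 difference was -0.16 (limma, standard error 0.269, 95% interval -0.78 to 0.47, adjusted p = 1). Tal1 is also expressed in erythroid cells and megakaryocytes. Of 13 blood and platelet markers 3 reached the filter, their summed FPKM was 6.06 to 7.97 in mutants and 6.56 to 8.45 in controls, and the 4 haemoglobin genes were listed at 0 in every library. How reads were assigned to genes is not given, so these 0 values do not show that haemoglobin RNA was absent. The part of erythroid cells and megakaryocytes in the Tal1 values was not tested.

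The fork head genes Foxf2, expressed in endothelium and pericytes of the central nervous system, and Foxq1, expressed in its endothelium, are neighbours on chromosome 13 (Foxf2 chr13:31625816-31631403 and Foxq1 chr13:31556134-31560976, both plus strand), 64839 bases apart with 3 noncoding genes between them. Foxf2 measured 12.5, 12.9 and 16.9 FPKM in mutants, against 11.4, 13.5 and 27.0 FPKM in controls, a log2 difference of -0.19 (limma, standard error 0.286, 95% interval -0.86 to 0.47, adjusted p = 1). Mutants 1 and 2 lay between controls 1 and 2. Foxq1 measured 8.87, 8.88 and 11.1 FPKM in mutants, against 8.05, 7.67 and 21.6 FPKM in controls, a log2 difference of -0.20 (limma, standard error 0.342, 95% interval -0.99 to 0.59, adjusted p = 1). Its 3 mutants lay above controls 1 and 2, and control 3 was the farthest from the other libraries of the 10 genes. Pericyte and smooth muscle markers, which bear on Foxf2, reached the filter for 11 of 12 genes, with a summed FPKM of 256 to 306 in mutants and 219 to 403 in controls, highest in control 3, and their part in the Foxf2 values was not tested.

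Foxf2 made up 55.5% to 63.8% of the 2 genes' summed FPKM and Foxq1 36.2% to 44.5%. They share an exact run of 32 coding bases, at the start of the fork head coding window shown here, where capitals mark the 59 of 90 bases that are the same in both.
Foxf2 (chr13:31626515-31626604, plus strand): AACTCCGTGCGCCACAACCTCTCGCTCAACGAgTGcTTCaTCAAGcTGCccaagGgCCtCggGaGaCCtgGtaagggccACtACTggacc
Foxq1 (chr13:31559397-31559486, plus strand): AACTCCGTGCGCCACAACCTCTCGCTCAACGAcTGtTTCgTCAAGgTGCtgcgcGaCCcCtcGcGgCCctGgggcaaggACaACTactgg
Over the whole window Foxf2 and Foxq1 were 65.6% identical.

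Ordered by the mean FPKM of the 6 libraries, the factors ran from Ets1 at 53.6 through Sox18 at 30.2, Fli1 at 19.5, Elk3 at 16.4, Foxf2 at 15.7, Foxq1 at 11.0, Erg at 10.8, Sox7 at 8.93 and Sox17 at 7.57 to Tal1 at 3.81 FPKM, a span of 14.1-fold. The ranges of all 9 neighbouring pairs overlapped across libraries. Within libraries, 7 of those 9 pairs stood in the same order in all 6. Elk3 was above Foxf2 in 4 of 6 libraries and Foxq1 above Erg in 3 of 6, so these pairs did not part. A member's value rested on 280 reads (Tal1 in mutant 1) to 10925 reads (Ets1 in control 3), for a counting error of 5.98% to 0.957%. That was far below the spread among the 3 control libraries, which came largely from control 3. Controls 1 and 2 lay closer together, from 2.89 and 2.91 FPKM for Tal1 to 17.8 and 14.8 FPKM for Fli1, so counting error matters for small steps.

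The 10 factors followed one profile over the libraries. Control 3 was the highest library for 10 of 10 factors and for 18 of 18 endothelial markers, beside 24.4% of all genes tested. It exceeded the mean of controls 1 and 2 by 1.86 times for Ets1 to 2.75 times for Foxq1, with a median of 2.22 over the factors, 2.05 over the 18 endothelial markers and 0.984 over all genes. A ratio at least as high as that of Ets1 was found in 767 genes, 5.63% of those tested. Mutants 2 and 3 both lay between control 3 and the other controls for 8 of 10 factors, all but Elk3 and Foxf2, beside 9.85% of all genes.

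**Figure D2:**
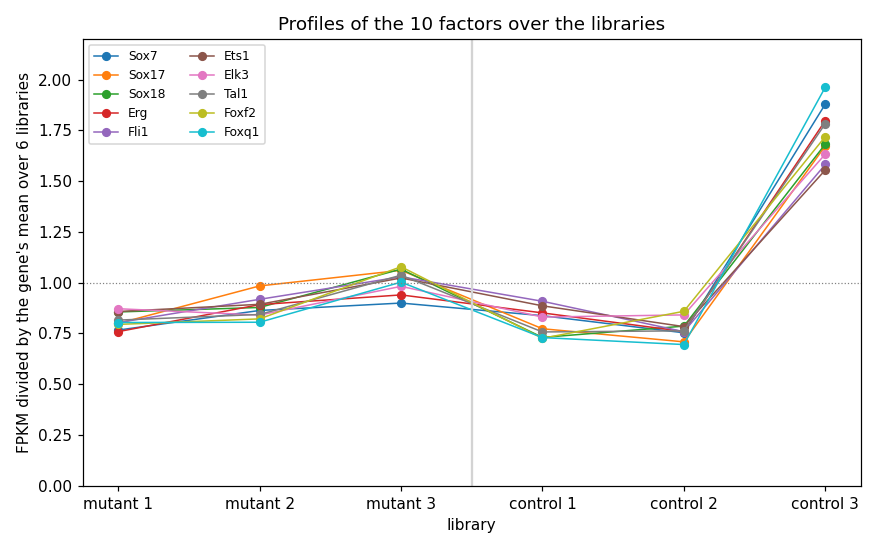
FPKM of each factor divided by its mean over the 6 libraries (vertical axis, no unit) for mutant libraries 1 to 3 and control libraries 1 to 3; each line is a gene. The lines run close together, lie near or below 1 in 5 libraries and are highest in control 3.

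The genotypes were also compared within each set of letters. Among the libraries lettered A to C, mutant 1 measured 0.942 (Erg) to 1.13 (Sox18 and Foxq1) times the mean of controls 1 and 2, with a median of 1.04. Among those lettered D to F, the mean of mutants 2 and 3 was 0.461 (Foxq1) to 0.616 (Fli1 and Ets1) times control 3, with a median of 0.555. The same ratios had medians of 1.02 and 0.561 over the endothelial markers and of 1.01 and 1.01 over all genes. Each set holds 1 library of one of the genotypes, so the difference between the sets was not tested.

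With the letters as a block, all 10 log2 differences lay below 0, from -0.52 for Sox7 to -0.28 for Sox17, beside 49.9% of all genes. In that fit 3 of 10 factors had an unadjusted p under 0.05 in limma (Erg, Sox7 and Fli1), beside 927 genes or 6.81% in all, and the lowest adjusted p was 0.718. Without control 3 all 10 lay above 0, from 0.07 for Sox7 to 0.30 for Sox17, beside 49.5% of all genes. All 18 endothelial markers lay above 0 in that fit as well, with a median of 0.15, the same as over the factors. Without control 3, 1 of 10 factors, Sox18, had an unadjusted p under 0.05 in limma (0.0498), beside 304 genes or 2.23% in all, and the lowest adjusted p was 0.999. The sign of every difference therefore rested on control 3, and Sox7 stood lowest and Sox17 highest in each of these fits.

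**Figure D3:**
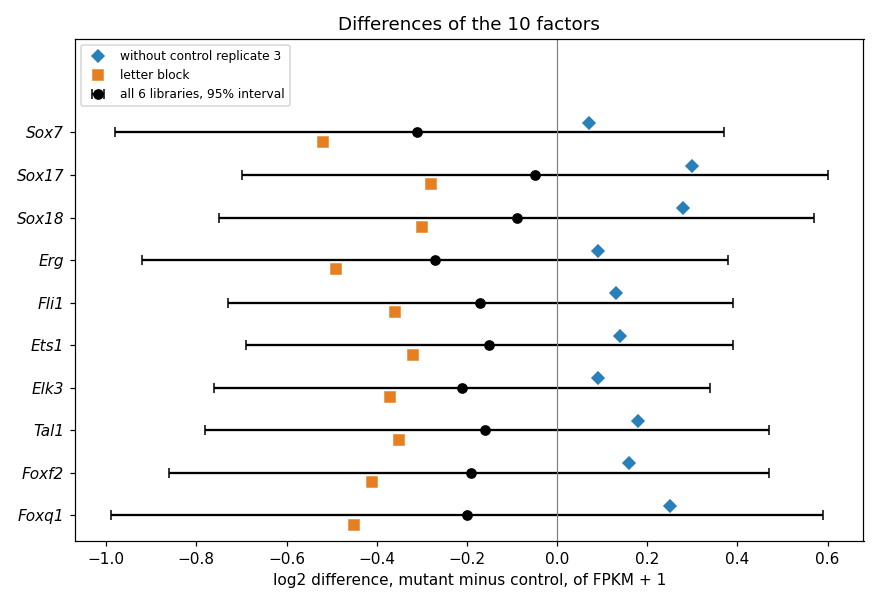
Log2 difference, mutant minus control, of FPKM + 1 for each of the 10 factors (horizontal axis); black circles with bars are the limma estimates with 95% intervals from all 6 libraries, squares those with the letters as a block and diamonds those without control 3. Every interval covers 0, every square lies left of its circle and every diamond lies right of 0.

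Since the endothelial level was highest in control 3 as well, each factor was also given relative to the mean log2(FPKM + 1) of the 18 endothelial markers in the same library. That level was 5.03, 5.13 and 5.39 in mutants 1, 2 and 3, against 5.06, 4.94 and 6.05 in controls 1, 2 and 3. After subtraction, the spread of a factor over the 6 libraries narrowed to 0.13 (Tal1) to 0.35 (Foxf2) on the log2 scale, where it had been 0.93 to 1.38 before. In 2 of 10 factors, Sox7 and Sox17, the groups then did not overlap, beside 1.23% of all genes tested, where it had been 4.35% before. The subtraction puts the swing of the endothelial level into genes that do not follow it. The share of 1.23% is thus no like background for endothelial genes. Sox7 lay at -2.06, -2.01 and -2.21 in mutants, against -1.98, -1.98 and -1.9 in controls. Sox17 lay at -2.21, -2.06 and -2.21 in mutants, against -2.28, -2.26 and -2.28 in controls. Sox7 was thus lower in every mutant and Sox17 higher in every mutant, by small steps. The nearest values were -2.01 and -1.98 for Sox7 and -2.21 and -2.26 for Sox17. Counting errors in a single library reached 4.61% for Sox7 and 4.38% for Sox17. Whether steps of this size exceed counting error was not tested.

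In limma on these relative levels 0 of 10 factors passed, beside 1 gene or 0.00734% of all genes. The difference was -0.14 for Sox7 (standard error 0.4) and 0.12 for Sox17 (standard error 0.397), each with an adjusted p of 1. Limma takes its standard errors in part from all genes, including those that do not follow the endothelial level. Here they exceeded the SD of Sox7 (0.104 in mutants, 0.046 in controls) and of Sox17 (0.09 and 0.01). This fit therefore cannot decide whether such small steps differ between the genotypes. After the subtraction the median difference of all genes was 0.16, where it had been -0.01 before. The offset shifts every gene alike, so Sox7 and Sox17 lie below that median just as they did before it. The count of 2 was not stable: it was 0 with the median of the markers in place of their mean, 1 with a pseudocount of 0.1 and 5 without control 2.

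The ratio of one factor to another within a library needs no marker list. Of the 45 pairs, the groups parted without overlap in 2, both with Sox17 on top. These 2 pairs were picked out after their values were seen and are described with no test. The share of parted pairs over all genes was not computed, so the count of 2 has no background beside it. The ratio of Sox17 to Sox7 was 0.884, 0.966 and 1.0 in mutants 1, 2 and 3, against 0.783, 0.798 and 0.755 in controls 1, 2 and 3. Its mean of 0.95 ± 0.0596 in mutants was 1.22 times the mean of 0.778 ± 0.0217 in controls (SD, n = 3 each), with a counting error of 3.81% to 6.36% in a single library. The nearest libraries, mutant 1 at 0.884 and control 2 at 0.798, had counting errors of 6.36% and 6.13%. This ratio draws on the same Sox7 and Sox17 values as the Sox7 share and the relative levels, so it is not a separate observation. The ratio of Sox17 to Erg was 0.739, 0.774 and 0.792 in mutants, against 0.637, 0.654 and 0.653 in controls, 1.19 times as high by the means of 0.768 ± 0.027 and 0.648 ± 0.00958. In both, the lowest mutant was above the highest control, which fixes the order within each set of letters as well. Without control 3, 9 pairs parted.

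**Figure D4:**
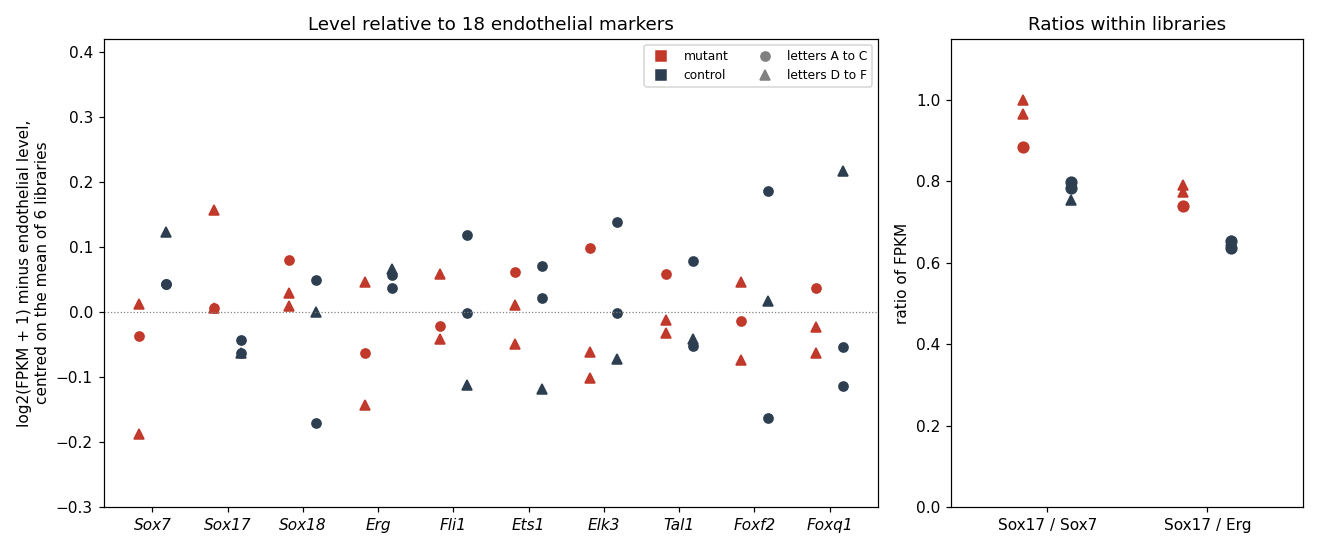
Left, log2(FPKM + 1) of each factor minus the mean of 18 endothelial markers in the same library, centred on the mean of the 6 libraries (vertical axis); right, ratios of Sox17 FPKM to Sox7 and to Erg FPKM (vertical axis, from 0); points are libraries, mutants left and controls right of each pair, circles lettered A to C and triangles D to F. Sox7 mutants all lie below and Sox17 mutants all above their controls by small steps, and in both ratios the 3 mutants lie above the 3 controls.

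The genes whose profiles were most like the mean profile of the factors were Afap1l1, Lama4, F11r, Tmc6 and Arhgef5, by the root mean square difference of log2(FPKM + 1) over the 6 libraries after centring each gene on its own mean. Afap1l1, an actin filament-associated protein gene, was at 0.0237 and measured 14.2, 15.4 and 17.7 FPKM in mutants, against 14.3, 13.2 and 28.7 FPKM in controls. Lama4, a laminin chain of vascular basement membranes, was at 0.0398, F11r, the junctional adhesion molecule gene, at 0.0401, Tmc6 at 0.042 and Arhgef5, a guanine nucleotide exchange factor gene, at 0.0421. The factors themselves lay between 0.0313 (Tal1) and 0.107 (Foxq1) from their common mean. The median distance was 0.0989 for the endothelial markers and 0.4 for the other genes tested.

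Relatives of the factors were examined by family. Of 22 other ETS genes 14 were tested, with 4 higher and 10 lower in mutants, a median log2 difference of -0.11 (-0.01 without control 3) and control 3 highest in 9. Elk4, a ternary complex factor like Elk3, measured 24.9, 22.8 and 18.8 FPKM in mutants, against 23.9, 23.1 and 31.8 FPKM in controls. Erf, an ETS repressor, measured 9.81, 9.54 and 10.5 FPKM in mutants, against 9.37, 11.4 and 14.5 FPKM in controls. In both the groups overlapped.

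Of 16 other SOX genes 9 were tested, with 2 higher and 7 lower, a median of -0.08 and control 3 highest in 1. Sox11, a SOXC factor of immature neurons, measured 8.57, 8.06 and 6.81 FPKM in mutants, against 10.6, 10.2 and 9.95 FPKM in controls, so that its groups did not overlap, yet it did not pass (limma, log2 difference -0.36, adjusted p = 1). Sox4, its close relative, measured 90.7, 69.1 and 64.3 FPKM in mutants, against 79.6, 93.9 and 81.4 FPKM in controls, which overlapped. Of 42 other FOX genes 17 were tested, with 1 higher and 16 lower, a median of -0.07 and control 3 highest in 7. Foxo1, a fork head factor under insulin and growth factor signalling, measured 9.85, 8.84 and 7.8 FPKM in mutants, against 9.19, 9.41 and 13.6 FPKM in controls, and Foxl2, known from the ovary, was low in all libraries, at 1.72 to 2.03 FPKM in mutants and 1.68 to 3.6 FPKM in controls. None of these 3 lists held a gene that passed.

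Of 11 partners of Tal1, 8 were tested, with 3 higher and 5 lower and a median of -0.03 (0.03 without control 3). Lmo2, the bridging protein of the Tal1 complex, measured 18.2, 21.7 and 28.0 FPKM in mutants, against 24.9, 20.8 and 45.8 FPKM in controls, highest in control 3 as Tal1 was. Tcf4, an E protein gene, measured 50.8, 54.1 and 49.1 FPKM in mutants, against 55.5, 50.7 and 64.0 FPKM in controls. Of 14 other transcription factors of endothelium and barrier, 13 were tested, with 2 higher and 11 lower, a median of -0.14 (0.05 without control 3) and control 3 highest in 11. Among them Mef2c, a MADS-box factor, measured 4.09, 4.37 and 5.0 FPKM in mutants, against 5.01, 3.95 and 9.11 FPKM in controls. Ppard, a nuclear receptor, measured 25.7, 23.5 and 23.3 FPKM in mutants, against 24.3, 25.9 and 30.5 FPKM in controls. The groups overlapped for all 4 genes, and 0 genes passed in either list.

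Of 18 endothelial genes known as targets of these families, 10 of which are also among the endothelial markers, all 18 were tested and 0 passed, with 0 higher and 18 lower, a median of -0.17 and control 3 highest in 18. Without control 3 the median was 0.15, with 16 higher and 2 lower. Nrp1, a co-receptor for VEGF, measured 18.2, 18.7 and 19.8 FPKM in mutants, against 19.5, 18.3 and 31.6 FPKM in controls. Efnb2, the arterial ephrin ligand, measured 17.3, 14.1 and 15.7 FPKM in mutants, against 16.0, 16.5 and 18.9 FPKM in controls, and both overlapped. Of 15 Wnt and barrier genes, 15 were tested and 0 passed, with 2 higher and 13 lower and a median of -0.10 (0.09 without control 3). Tspan12, a co-activator of the Norrin receptor, measured 9.82, 9.11 and 10.4 FPKM in mutants, against 9.8, 10 and 16.8 FPKM in controls. Abcb1a, the efflux pump of the blood-brain barrier, measured 10.4, 9.78 and 11.7 FPKM in mutants, against 11.1, 10.3 and 20.7 FPKM in controls, where again control 3 alone stood high.

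Other cell types that express some of these factors were measured beside them. Microglia and macrophage markers, which bear on Fli1 and Ets1, had 10 of 12 genes tested and a summed FPKM of 32.0 to 89.9 in mutants, lowest in mutant 1, and 59.9 to 77.9 in controls, with control 3 highest in 1 of 10 genes. Of 11 T and B cell markers 0 reached the filter, with a summed FPKM of 2.34 to 2.59 in mutants and 2.21 to 3.42 in controls. Photoreceptor markers summed to 4340 to 5790 FPKM in mutants and 3680 to 5280 FPKM in controls, with control 3 highest in 0 of 14. The part of these cells in the values of the factors was not tested.

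ETS proteins are known to bind near the start sites of endothelial genes, and start-site windows of 250 bases before to 50 after the start were searched on both strands (RefSeq, GRCm38.p6). Such windows were at hand for Erg, Elk3, Tal1 and Foxf2, 7 in all. A GGAA core was in 7 of 7, as it was in 96.0% of 32851 promoters. The SOX core ACAAT was in 1 of 7 and 31.0% of all, the fork head core TGTTTNC in 3 of 7 and 20.5%, the E-box CANNTG in 3 of 7 and 72.3%, and GATA in 3 of 7 and 57.9%. The windows with ACAAT or TGTTTNC were all alternative windows of Erg, so these counts rest on a single gene. A window each for an ETS gene and for Tal1 is shown, with the GGAA core or its reverse complement in capitals, as an example of how many such matches 300 bases hold.
Erg promoter (chr16:95586544-95586843, minus strand): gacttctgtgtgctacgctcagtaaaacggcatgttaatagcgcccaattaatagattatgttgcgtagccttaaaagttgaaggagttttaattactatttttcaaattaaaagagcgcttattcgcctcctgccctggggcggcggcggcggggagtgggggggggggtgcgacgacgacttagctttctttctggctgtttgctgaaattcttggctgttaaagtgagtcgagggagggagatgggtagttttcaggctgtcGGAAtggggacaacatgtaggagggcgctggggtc
Tal1 promoter (chr4:115056176-115056475, plus strand): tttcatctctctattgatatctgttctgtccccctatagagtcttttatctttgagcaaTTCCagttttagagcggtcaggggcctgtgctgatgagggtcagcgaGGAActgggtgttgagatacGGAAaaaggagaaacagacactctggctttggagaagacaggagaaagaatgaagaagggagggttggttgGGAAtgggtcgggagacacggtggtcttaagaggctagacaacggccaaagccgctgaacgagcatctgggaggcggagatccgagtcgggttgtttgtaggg
These matches describe the letters of the windows alone.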

How the data were processed

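Per the labels' protocols, the 6 libraries (3 mutant, 3 control) were built from RNA with Illumina's TruSeq v2 reagents, which do not mark strand. Values were deposited by the authors as FPKM for each gene symbol. The submitters' processing notes name Cufflinks 2.2.1, DESeq2, STAR 2.5.0b and bedtools 2.17.0, and the build mm10, with no role for any of them. The annotation and the strand setting used in counting, and the read length, were not given in the sources used here. FPKM are length- and depth-scaled values, not counts, so limma 3.58.1 (R 4.3.3) with a trended prior was fitted to log2(FPKM + 1). It took in genes that reached 1 FPKM in 3 or more libraries, with Benjamini-Hochberg adjustment over 13622 genes and a threshold of 0.05. Differences on this scale understate changes of low genes. Where the design named a count test in case of counts, it was not used.

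Whole reads were recovered from the FPKM steps: 16489 of 16491 genes above 0 in all libraries gave whole reads (within 0.002 reads), with depth factors of 21062142, 31137828 and 27817341 in mutants 1 to 3 and 30864448, 24206403 and 25890346 in controls 1 to 3. They served for counting errors, which cover counting alone, and for limma voom. The fit was also run on simulated reads drawn with a fixed spread and with no library set apart as control 3 is. That run does not show how the fit performs on these libraries, and its outcome is not given here. Positions and coding sequences came from GENCODE M21 on GRCm38, promoters from RefSeq.

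Named genes are the 10 factors, Anxa3, up to 2 genes with the smallest unadjusted p of each gene list, and the 5 genes with the nearest profiles; Sag, Cdh5, Cdk17 and AI506816 were named after their values were seen. The factors and lists were chosen with earlier results of these data known. Alternatives were a pseudocount of 0.1, no filter, a filter of 0.5 FPKM in 2 libraries, median-of-ratios scaling, quantile normalization, library weights, a letter block, a replicate block, an endothelial offset, voom and the omission of each library. Ratios without control 3 and relative levels without each library were added after the data were seen.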

Additional observations from a re-analysis of the deposited data

How the results depend on the processing

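The count of 0 factors called held under every alternative run. Across all genes, 1 gene (AI506816) was called after the endothelial offset and 145 with library weights, and 0 under the others. The weights were 0.295, 7 and 0.746 for mutants 1, 2 and 3 and 0.747, 3.35 and 0.26 for controls 1, 2 and 3. The weighted fit thus rested largely on mutant 2 and control 2. A replicate block left 0 genes called and the factors' median at -0.18. Deviations of log2(FPKM + 1) from the genotype mean correlated at 0.249, -0.151 and 0.391 for same-numbered libraries 1, 2 and 3. For differently numbered libraries the correlations ran from -0.352 (mutant 3 and control 1) to 0.231 (mutant 1 and control 2). Whether the numbers pair the libraries cannot be told from these values. With library weights the log2 differences were above 0 for Sox7 (0.08), Sox17 (0.32), Sox18 (0.13), Erg (0.11), Fli1 (0.16), Ets1 (0.11), Tal1 (0.07), Foxq1 (0.12), Tcf4 (0.04) and Mef2c (0.02), and the lowest adjusted p of a factor was 0.134 (limma). After the endothelial offset they were above 0 for Sox17 (0.12), Sox18 (0.08), Ets1 (0.01), Tal1 (0.01), Tcf4 (0.03), Ppard (0.02) and Efnb2 (0.05). Leaving out each library in turn gave -0.53 to 0.07 for Sox7, -0.25 to 0.30 for Sox17, -0.30 to 0.28 for Sox18, -0.49 to 0.09 for Erg, -0.38 to 0.13 for Fli1, -0.34 to 0.14 for Ets1, -0.37 to 0.09 for Elk3, -0.32 to 0.18 for Tal1, -0.43 to 0.16 for Foxf2, -0.44 to 0.25 for Foxq1, -0.39 to 0.00 for Foxl2 and -0.51 to 0.00 for Mef2c. The highest value came without control 3 in each. Factors whose groups parted relative to the endothelial level numbered 2 as reported, 0 with the median of the markers, 1 with a pseudocount of 0.1, and 2 to 5 with a library left out. The pairs of factors that parted numbered 9 without control 3 and 2 with all libraries. The causes were not tested.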
